A study of Mus musculus with 20 samples.

Results

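The aminoacyl-tRNA synthetase genes were examined in RNA-seq of mouse frontal cortex. These 36 genes were taken by name from the 25965 rows of the deposited table, and each name was found once. They comprised 20 cytosolic genes and 16 mitochondrial genes, the latter with names ending in 2. All animals were C57BL/6 mice, 5 months of age, and all tissue was snap frozen. The 6 wild-type (+/+) libraries carried no knock-in allele. The 6 heterozygous (Q331K/+) and 8 homozygous (Q331K/Q331K) libraries carried the Q331K change in 1 or both copies of Tardbp. This gene encodes TDP-43, a protein that binds RNA and whose mutations cause amyotrophic lateral sclerosis and frontotemporal dementia. The knock-in sits in the endogenous gene, so every cell type that makes TDP-43 carries it.

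Aminoacyl-tRNA synthetases join each amino acid to its matching tRNA, which then delivers it to the ribosome. Separate nuclear genes encode most of the enzymes used in the cytosol and in mitochondria, although Gars and Kars are known to supply both compartments. In neurons the family is known for inherited disease: dominant mutations of the glycyl, tyrosyl, alanyl and histidyl enzymes cause peripheral neuropathy, and recessive mutations of many mitochondrial enzymes cause brain disease. Several cytosolic synthetase genes are also known targets of ATF4, the transcription factor of the amino acid and integrated stress responses.

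Library totals ran from 61282647 to 111440766 counts, and the 36 genes together took 0.182% to 0.201% of them. The lowest count of any member in any library was 386, for Ears2, and the highest was 29159, for Nars. Levels are given as CPM, the count of a gene relative to its library's scaled total. Neuronal markers were abundant, with the summed CPM of 5 excitatory markers at 6141 to 7223 over all libraries. The summed CPM of 6 ependymal markers was higher in some Q331K libraries, at 6.57 to 7.80 in wild type, 7.49 to 14.9 in heterozygotes and 7.24 to 21.1 in homozygotes. The 5 olfactory bulb markers summed to 7.23 to 20.5, 7.34 to 11.7 and 7.06 to 76.9 CPM in the same order, and the 6 meningeal markers to 48.1 to 91.4, 68.2 to 86.5 and 71.3 to 115 CPM. The 6 striatal markers reached higher in heterozygotes, at 65.5 to 94.9, 69.9 to 197 and 64.5 to 99.5 CPM in that order. Tardbp was measured at 210.0 to 227 CPM in wild type, 215 to 235 CPM in heterozygotes and 234 to 264 CPM in homozygotes. Homozygotes lay above wild type without overlap; the count of Tardbp does not distinguish its alleles. The labels name separate samples and nothing more about animals, so the p-values reflect only how these samples varied. Exons of 13 of the 36 genes overlap those of another gene, such as Mars with Ddit3 (68 bases) and Iars2 with Rab3gap2 and 2010103J01Rik (2148 bases together), on the opposite strand. In bulk tissue, fewer cells of a type and less RNA per cell cannot be told apart.

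The first question was how much of each synthetase transcript the wild-type cortex held. Cytosolic transcripts were generally the more abundant. Per kilobase of exon, their levels summed to 348 ± 3.32 CPM (SD, n = 6), against 53.3 ± 1.2 CPM (SD, n = 6) for the mitochondrial set. The median gene stood at 13.8 CPM per kilobase in the cytosolic set and at 3.04 in the mitochondrial set.

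Asparaginyl-tRNA synthetase, Nars, had the highest level per length, at 56.4 ± 1.39 CPM per kilobase in wild type (SD, n = 6). Seryl-tRNA synthetase, Sars, followed at 37.0 ± 1.66 CPM per kilobase and glycyl-tRNA synthetase, Gars, at 35.8 ± 1.15 CPM per kilobase, within 1 SD of each other. Hars, Wars and Aars, which charge tRNAs with histidine, tryptophan and alanine, came next at 30.7 ± 0.88, 26.7 ± 0.83 and 23.4 ± 0.36 CPM per kilobase. Iars, Mars, Rars and Yars, for isoleucine, methionine, arginine and tyrosine, lay together between 13.7 and 14.4 CPM per kilobase, and neighbours among them did not differ beyond their spread. At the low end of the cytosolic set were Tars, for threonine, at 5.6 ± 0.42 CPM per kilobase and Eprs, which charges both glutamate and proline tRNAs, at 5.06 ± 0.18.

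The mitochondrial alanyl enzyme gene Aars2 had the highest level of its set, 7.44 ± 0.41 CPM per kilobase, above 7 cytosolic genes, although it lay within its spread of Qars. Rars2, Iars2 and Hars2 followed between 5.97 and 6.40 CPM per kilobase. Mars2, at 0.941 ± 0.052 CPM per kilobase, was the lowest of the 36. Its place rests on the length used: GENCODE gives it 11294 bases of exon, while its row in the deposited table spans 2882 bases, over which its level was 3.69 ± 0.20 CPM per kilobase. Of the 36 genes, 18 had the same start and end in both. With the length of the longest coding transcript instead, Sars (102 CPM per kilobase) passed Nars (89.5) and Eprs moved from place 24 to place 11; the length of Mars2 is the same there.

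For the 13 amino acids with a gene of each kind under the same letter, the cytosolic transcript exceeded its mitochondrial partner per length in each pair. The ratio in wild type was 38.7 for Nars over Nars2, 21.7 for Wars over Wars2, 14.9 for Mars over Mars2 (3.81 with the span of Mars2 in the deposited table) and 12.7 for Sars over Sars2. It was as small as 1.38 for Vars over Vars2 and 1.55 for Tars over Tars2. With coding transcript lengths the threonyl pair turned over, to 0.792, and the leucyl pair came to 1.06.

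**Figure D1:**
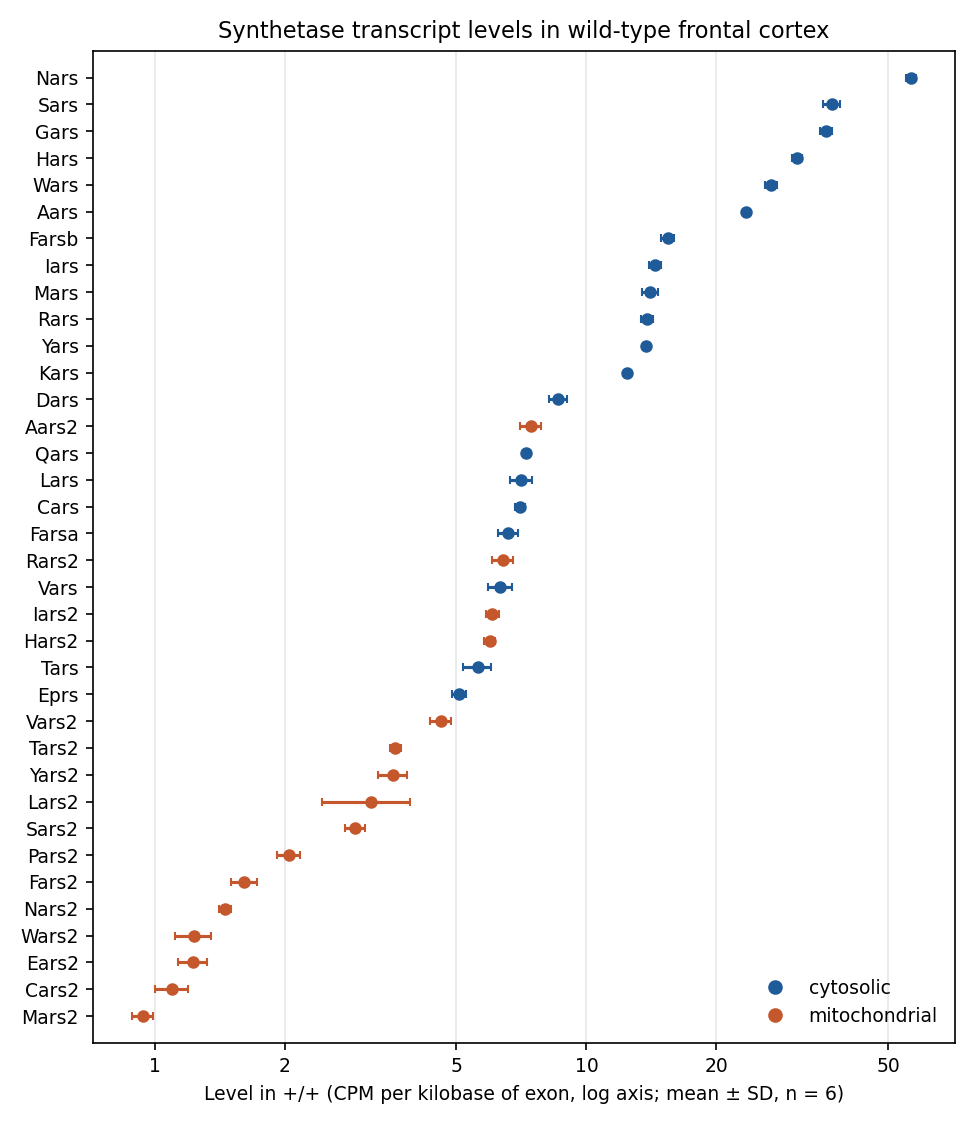
Transcript level of the 36 synthetase genes in wild-type frontal cortex, in CPM per kilobase of exon on a log axis, as the mean and SD of 6 libraries. Cytosolic genes (blue) fill the top of the order from Nars at 56.4, mitochondrial genes (orange) the bottom, and Lars2 has the widest bar.

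The second question was whether the knock-in allele altered these transcripts. No synthetase transcript passed the test in any comparison. At an adjusted p under 0.05 (edgeR, adjusted over 16690 genes), 0 of 36 members were called in homozygotes against wild type, where 1.56% of all genes were called (261 of 16690). In heterozygotes against wild type 0 of 36 were called, beside 0% of all genes (0 of 16690, with 532 at an unadjusted p under 0.05, 2 called by DESeq2 and 0 by limma voom). In homozygotes against heterozygotes 0 of 36 were called, beside 0.108% of all genes (18). In the trend over 0, 1 and 2 alleles 0 of 36 were called, beside 1.83% (306). Unadjusted, 3, 1, 2 and 3 of the 36 members had a p under 0.05 in these 4 comparisons, which is 8.33%, 2.78%, 5.56% and 8.33% of them, below the 16.1%, 3.19%, 11% and 16.8% of all genes tested. DESeq2 and limma voom also called 0 members in each comparison.

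The ranges of 2 genotypes also overlapped for each of the 36 members. In homozygotes against wild type 0 of 36 ranges were apart, beside 0.779% of all genes. In heterozygotes against wild type 0 of 36 were apart, beside 0.198%, and in homozygotes against heterozygotes 0 of 36, beside 0.288%.

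In homozygotes against wild type, the 20 cytosolic estimates ran from -0.07 (Yars) to 0.05 (Dars) on the log2 scale, with 13 lower and 7 higher. Their median was -0.018, beside 0.0013 over all genes tested, of which 49.4% were lower. With ependymal, olfactory bulb and meningeal marker scores as covariates this median turned to 0.0089. The 95% intervals of the 20 genes stayed between -8.68% and 9.79% of the wild-type level. In heterozygotes against wild type, 16 of the 20 estimates were lower, with a median of -0.021 beside 0.0017 over all genes, of which 48.8% were lower. The intervals stayed between -8.95% and 8.61%. The cytosolic median was -0.036 without heterozygous replicate 4 and -0.013 without replicate 2. In homozygotes against heterozygotes, 9 were lower and 11 higher, with a median of 0.010 and intervals between -7.40% and 11.2%. Over all genes the median there was -0.00028, and 50.2% were lower. The cytosolic median was 0.031 without heterozygous replicate 4 and turned to -0.0031 without heterozygous replicate 5. The comparisons share their samples, so these directions are not independent of one another.

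The 16 mitochondrial estimates in homozygotes against wild type ran from -0.16 (Lars2) to 0.12 (Fars2), with 9 lower, 7 higher and a median of -0.015, which was -0.044 with the same scores as covariates. Their intervals were wider, from -24.9% (Lars2) to 17.0% (Fars2), and from -13.1% (Pars2) with Lars2 left out. In heterozygotes against wild type 7 were lower and 9 higher, with a median of 0.017, and in homozygotes against heterozygotes 12 were lower and 4 higher, with a median of -0.040. Over all genes 48.8% and 50.2% were lower in these comparisons, with medians of 0.0017 and -0.00028. Per length, the summed level in homozygotes was 342 ± 6.55 CPM for the cytosolic set and 52.6 ± 1.10 CPM for the mitochondrial set (SD, n = 8). In heterozygotes the sums were 340 ± 12.2 and 53.5 ± 0.80 CPM (SD, n = 6).

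**Figure D2:**
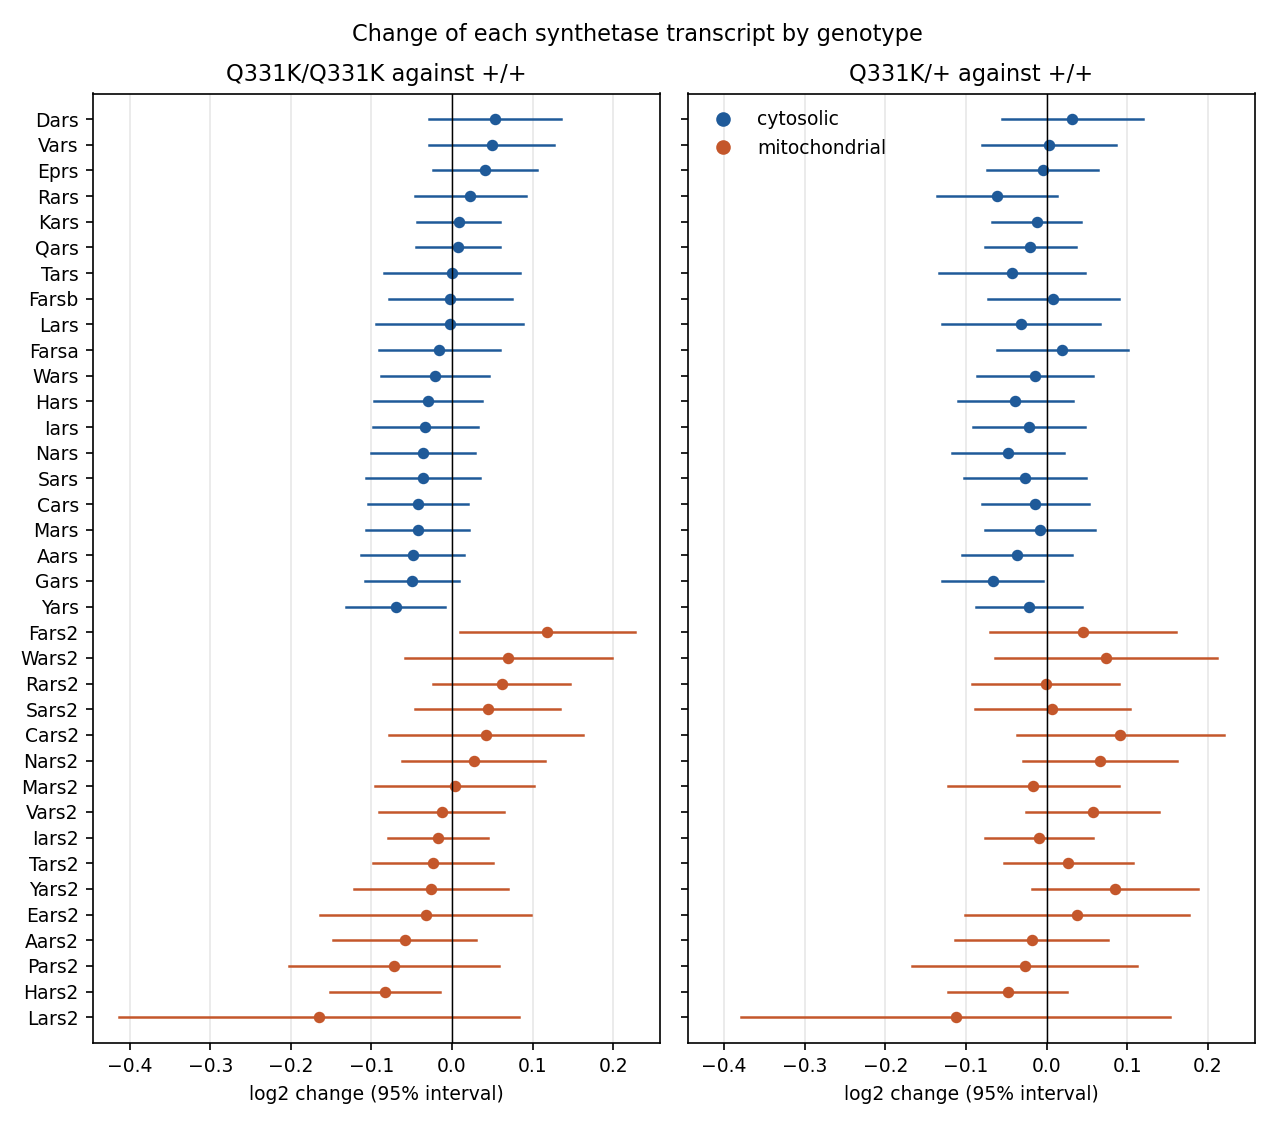
Estimated log2 change of each of the 36 transcripts with its 95% interval, in homozygotes (left) and heterozygotes (right) against wild type, with cytosolic genes in blue and mitochondrial genes in orange. Most intervals span 0, no gene passed the adjusted test, and the interval of Lars2 is the widest, from -0.41 to 0.08 in homozygotes.

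Among cytosolic genes the tyrosyl-tRNA synthetase gene Yars had the smallest p in homozygotes against wild type. Its lowest, median and highest CPM were 79.9, 81.9 and 82.9 in wild type, 74.9, 80.1 and 85.9 in heterozygotes, and 74.6, 76.9 and 81.6 in homozygotes. Of the 8 homozygous libraries, 5 lay below the lowest wild-type library and 3 within its range, and the heterozygotes spanned both. The means were 81.6 ± 1.25 (SD, n = 6) and 77.8 ± 2.55 CPM (SD, n = 8). The log2 change was -0.07 (SE 0.030, edgeR adjusted p = 0.242). Per allele the change was -0.035 (SE 0.015, edgeR adjusted p = 0.213). Exons of Yars share 30 bases with C77080 on the opposite strand.

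The glycyl enzyme gene Gars stood at 108, 111 and 116 CPM (lowest, median, highest) in wild type, at 103, 106 and 114 CPM in heterozygotes and at 103, 108 and 112 CPM in homozygotes. Below the lowest wild-type library lay 5 of 6 heterozygous and 4 of 8 homozygous libraries. Heterozygotes against wild type gave its smallest p, at a log2 change of -0.07 (SE 0.030, unadjusted p = 0.0375, edgeR adjusted p = 1.00). In homozygotes against wild type the change was -0.05 (adjusted p = 0.406).

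Aars, whose product charges alanine, measured 214, 218 and 224 CPM in wild type, 195, 212 and 228 CPM in heterozygotes and 198, 213 and 217 CPM in homozygotes. The heterozygotes were the most spread and held both the highest and the lowest of the 20 libraries. Its log2 change in homozygotes against wild type was -0.05 (SE 0.031, edgeR adjusted p = 0.466). Its exons share 1326 bases with Exosc6 on the same strand, so part of its count could belong to that gene. Cars, for cysteine, stood at 44.4, 46.8 and 47.2 CPM in wild type, 41.6, 45.6 and 48.4 CPM in heterozygotes and 43.5, 44.9 and 45.7 CPM in homozygotes, again with overlapping groups, and changed by -0.04 (SE 0.030, edgeR adjusted p = 0.521). Exons of Cars share 211 bases with Gm15580 on the opposite strand.

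Rars, the cytosolic arginyl enzyme gene, had the smallest p of the cytosolic genes in homozygotes against heterozygotes. It measured 43.2, 44.4 and 46.7 CPM in wild type, 40.1, 43.0 and 45.7 CPM in heterozygotes and 42.1, 45.3 and 47.3 CPM in homozygotes. The heterozygotes were the lowest group, with 3 of 8 homozygous libraries above their range, and the log2 difference was 0.08 (SE 0.034, edgeR adjusted p = 0.372).

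Of the cytosolic enzymes, those for aspartate, glutamate and proline, isoleucine, lysine, leucine, methionine, glutamine and arginine are known to assemble into a multi-synthetase complex. Their 8 genes had 5 higher and 3 lower estimates in homozygotes against wild type (median 0.0081), and the 12 others 2 higher and 10 lower (median -0.033). In heterozygotes against wild type the 8 had 1 higher and 7 lower (median -0.016) and the 12 others 3 higher and 9 lower (median -0.024). This grouping was made after the values were seen. The 3 scaffold proteins of the complex, Aimp1, Aimp2 and Eef1e1, had 0 calls in each comparison with edgeR, DESeq2 or limma voom, and 0 had an unadjusted p under 0.05. Aimp1 stood at 26.0 ± 0.76 CPM in 6 wild-type and 25.9 ± 0.99 CPM in 8 homozygous libraries (± SD), and Eef1e1 at 14.5 ± 0.88 and 13.9 ± 1.03 CPM.

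In the mitochondrial set, the histidyl enzyme gene Hars2 had the smallest p. It stood at 24.3, 25.8 and 26.4 CPM in wild type, 23.3, 24.9 and 26.0 CPM in heterozygotes and 23.2, 23.9 and 25.7 CPM in homozygotes. Of the 8 homozygous libraries, 4 lay below the wild-type range and 4 within it. The log2 change was -0.08 (SE 0.033, edgeR adjusted p = 0.212), and -0.04 per allele (edgeR adjusted p = 0.187). Hars2 and Hars lie head to head on chromosome 18 and share 195 bases of exon on opposite strands. The cytosolic partner Hars stood at 75.2 ± 2.15 CPM in wild type and 73.6 ± 3.05 CPM in homozygotes.

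Fars2, which charges phenylalanine in mitochondria, leaned the other way. It measured 8.49, 9.42 and 9.89 CPM in wild type, 8.85, 9.45 and 10.7 CPM in heterozygotes and 9.30, 9.86 and 10.9 CPM in homozygotes. Above the highest wild-type library lay 3 of 8 homozygous libraries. The log2 change was 0.12 (SE 0.052, edgeR adjusted p = 0.263). Exons of Fars2 share 115 bases with Lyrm4 on the opposite strand. The genes of the 2 cytosolic phenylalanyl subunits had estimates of -0.016 (Farsa) and -0.0021 (Farsb). Rars2, the mitochondrial arginyl enzyme gene, measured 16.5, 17.8 and 18.9 CPM in wild type, 16.2, 18.1 and 18.6 CPM in heterozygotes and 17.6, 18.3 and 19.7 CPM in homozygotes. All groups overlapped, at a log2 change of 0.06 in homozygotes against wild type (SE 0.041, edgeR adjusted p = 0.499).

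Lars2, the mitochondrial leucyl enzyme gene, had the largest estimate and the largest error. Its CPM were 28.2, 34.0 and 50.8 in wild type, 29.3, 31.8 and 35.5 in heterozygotes and 26.5, 31.0 and 42.1 in homozygotes. A single library stood high in wild type (replicate 5) and another in homozygotes (replicate 2). The log2 change in homozygotes against wild type was -0.16 (SE 0.118, edgeR adjusted p = 0.532). Without wild-type replicate 5 it was -0.03 (adjusted p = 0.919). It was -0.34 with the tissue marker scores as covariates and -0.28 with the 4 libraries highest in ependymal markers left out. Over all settings run no adjusted p passed. Yars2, for mitochondrial tyrosine, had the smallest p of its set in homozygotes against heterozygotes: 10.3, 11.1 and 12.4 CPM in wild type, 10.99, 11.95 and 12.6 CPM in heterozygotes and 10.4, 11.1 and 11.8 CPM in homozygotes. The heterozygotes were the highest group, 4 of 8 homozygous libraries lay below their range, and the log2 difference was -0.11 (SE 0.046, edgeR adjusted p = 0.395).

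**Figure D3:**
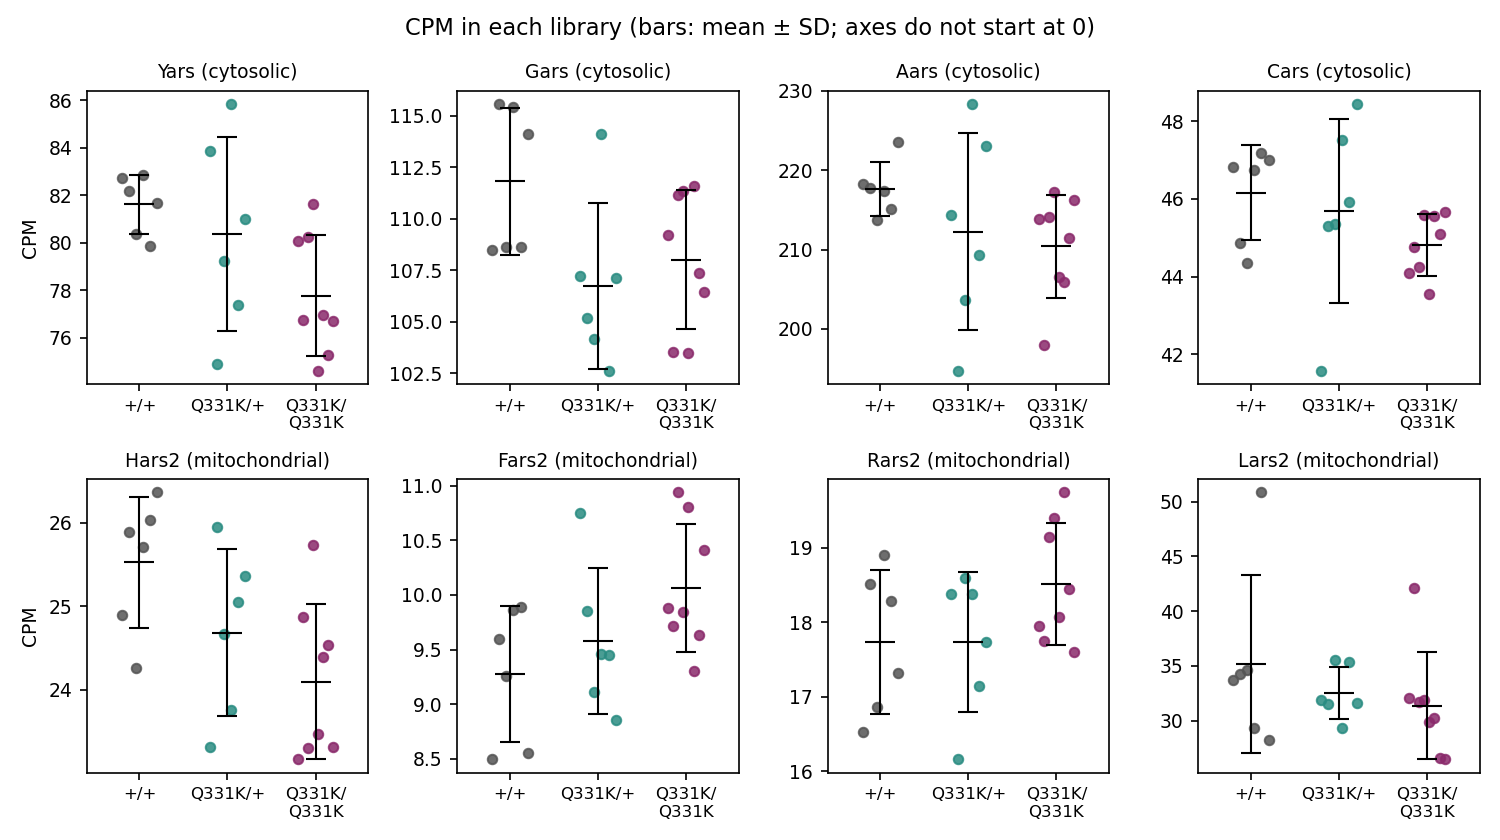
CPM in each of the 20 libraries for the 4 cytosolic and 4 mitochondrial genes of smallest p in homozygotes against wild type, with the mean and SD of each genotype; the axes do not start at 0. All groups overlap, and the high points of Lars2 are 50.8 CPM in wild type and 42.1 CPM in homozygotes.

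The third question was how tightly the transcripts were held within a genotype. The SD of log2 CPM around the genotype means had a median of 0.058 over the cytosolic genes, 0.080 over the mitochondrial genes and 0.102 over all genes tested. Cytosolic genes were generally the more abundant, so these medians do not compare the sets at like level. Against genes of like level, the share with a lower SD ran from 0.313% (Qars) to 69.3% (Lars) in the cytosolic set. In the mitochondrial set without Lars2 it ran from 5.07% (Sars2) to 65.1% (Aars2). Kars and Qars, for lysine and glutamine, were the steadiest, both at 0.034; of the genes of like level, 0.316% and 0.313% had a lower SD. Lars2 was the most variable at 0.219, with a lower SD in 98.7% of 1268 genes of like level. The other 15 mitochondrial genes ran from 0.050 to 0.115.

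Within genotypes the cytosolic transcripts tended to be high or low in the same libraries. Across the 20 libraries, as deviations from genotype means, Pearson's r averaged 0.197 over the 190 cytosolic pairs, of which 141 were positive. The average was 0.019 among the 5579 genes in their range of level. Among the 120 mitochondrial pairs it was 0.021 (0.0029 among 6953 genes in their range), and among the 320 mixed pairs -0.045. Since the values of a library share its depth and composition, these averages describe the libraries and carry no test.

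Of the 630 pairs tested, 2 passed a permutation test within genotypes after Benjamini-Hochberg adjustment, both cytosolic. Pairs of other genes of like level were not tested, and the shared composition of the libraries bears on these pairs too. A relation particular to these 2 pairs is therefore not shown. Gars and Nars had r = 0.822 (permutation p = 1e-04, adjusted p = 0.0315) and rho = 0.723 (permutation p = 0.00085, adjusted p = 0.0987), with r = 0.739 without the 2 farthest libraries. Lars and Yars had r = 0.813 (permutation p = 1e-04, adjusted p = 0.0315) and rho = 0.826 (permutation p = 9e-05, adjusted p = 0.0284), with r = 0.776 without the 2 farthest. Nars had the highest mean r with the other cytosolic genes, 0.409, followed by Aars (0.364), Gars (0.361) and Yars (0.358). Farsa stood against the rest at -0.238, with 3 of 19 positive. The products of Farsa and Farsb form 1 enzyme, yet the transcripts had r = -0.579 and rho = -0.553 (permutation p = 0.00642 and 0.0113, adjusted p = 0.150 and 0.224), which did not pass.

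**Figure D4:**
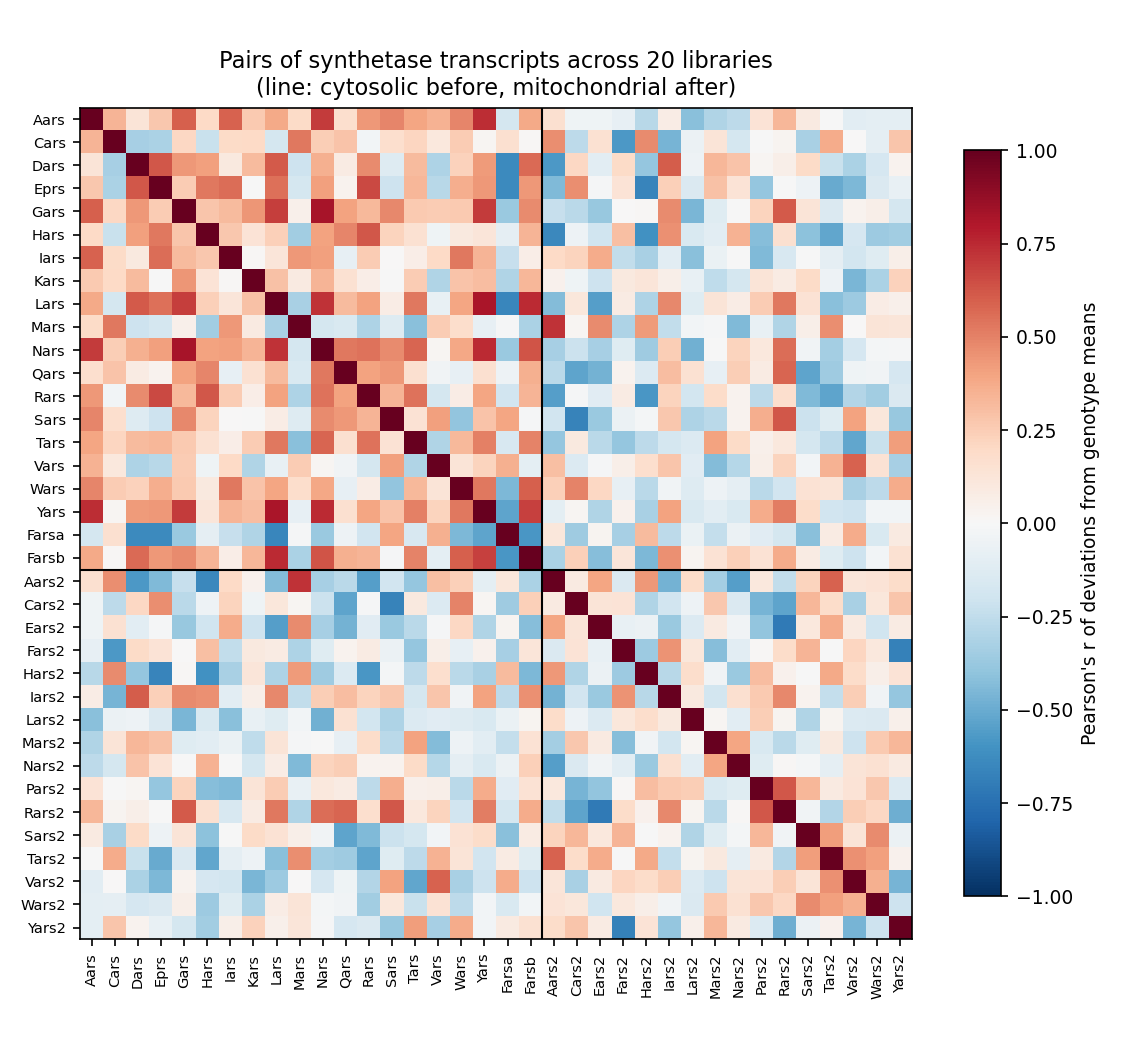
Pearson's r for each pair of the 36 transcripts over 20 libraries, as deviations of log2 CPM from genotype means, from -1 (blue) to 1 (red); the black line parts cytosolic from mitochondrial genes. The cytosolic block is mostly red (mean r 0.197), with Farsa mostly blue, and the other blocks show no such tendency (means 0.021 and -0.045).

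Promoter letters are shown for the cytosolic genes whose windows hold the ATF4 binding element, since several cytosolic synthetase genes are known ATF4 targets. RefSeq windows of 300 bases on GRCm38.p6, 250 before and 50 after the start, matched 27 of the 36 genes; Cars, Hars, Lars, Nars, Rars, Vars, Wars, Hars2 and Pars2 had none. The core of the C/EBP-ATF response element, TGATGNAA on either strand, was in windows of 5 of 13 cytosolic genes (Aars, Gars, Iars, Tars and Yars) and 0 of 14 mitochondrial genes. Counted by window, it was in 3.97% of all 32851. Stretches of 30 bases, 1 for each of these genes at the match nearest the start, are printed 5′ to 3′ on the strand of the gene, with the matching letters, or their reverse complement, in capitals. 
Aars, chr8:111033840-111033869, plus strand: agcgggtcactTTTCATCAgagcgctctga
Gars, chr6:55037960-55037989, plus strand: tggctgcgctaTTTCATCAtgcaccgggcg
Iars, chr13:49682126-49682155, plus strand: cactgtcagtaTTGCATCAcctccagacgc
Tars, chr15:11399655-11399684, minus strand: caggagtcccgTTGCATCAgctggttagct
Yars, chr4:129189895-129189924, plus strand: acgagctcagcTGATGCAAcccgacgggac
The Gars match began 30 bases before the start, while the Yars match lay within the first bases of the transcript. An ETS core (CCGGAAG, either strand) was in windows of 5 of 13 cytosolic and 4 of 14 mitochondrial genes, beside 8.86% of all windows. An NRF1 half-site (TGCGCA, its own reverse complement) was in 4 of 13 and 3 of 14, beside 7.76%. The motifs do not contain one another. A match describes letters and shows no binding.

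Averaged over genes, each library's mean deviation in log2 CPM lay between -0.055 and 0.067 for the cytosolic set and between -0.056 and 0.046 for the mitochondrial set. Both cytosolic extremes were heterozygous libraries, replicate 2 (-0.055) and replicate 4 (0.067). The cytosolic mean was 0.011 ± 0.014 over the 6 wild-type libraries, -0.0096 ± 0.044 over the 6 heterozygous and -0.0012 ± 0.021 over the 8 homozygous (± SD). The mitochondrial mean was -0.0028 ± 0.021, 0.016 ± 0.025 and -0.0096 ± 0.032 in the same order, and -0.0088 ± 0.024, 0.017 ± 0.021 and -0.0060 ± 0.027 without Lars2. The genotypes overlapped in range, and these differences were not tested.

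In an examination added after the data were seen, these library means were correlated with astrocyte, excitatory neuron and ependymal marker scores. Scores of other marker sets, such as microglia and oligodendrocytes, were not correlated with them. A relation particular to astrocytes is therefore not shown. Across the 20 libraries, as deviations from genotype means, a score of 4 astrocyte markers had r = -0.594 with the cytosolic mean (permutation p = 0.00391, adjusted p = 0.0235 over 6 relations). The rank correlation was rho = -0.582 (permutation p = 0.0131, adjusted p = 0.0785), and r was -0.623 without the 2 farthest libraries. With the mitochondrial mean the score had r = 0.612 (permutation p = 0.0113, adjusted p = 0.0340), rho = 0.508 (permutation p = 0.0400, adjusted p = 0.120) and r = 0.476 without those 2. By rank the astrocyte score passed with neither set. Scores of excitatory neuron markers and of ependymal markers did not pass with either set (adjusted p from 0.0724 to 0.356 for r). The summed CPM of the astrocyte markers was 876 to 996 in wild type, 880 to 1068 in heterozygotes and 896 to 1107 in homozygotes, and their part in the library means was not tested.

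**Figure D5:**
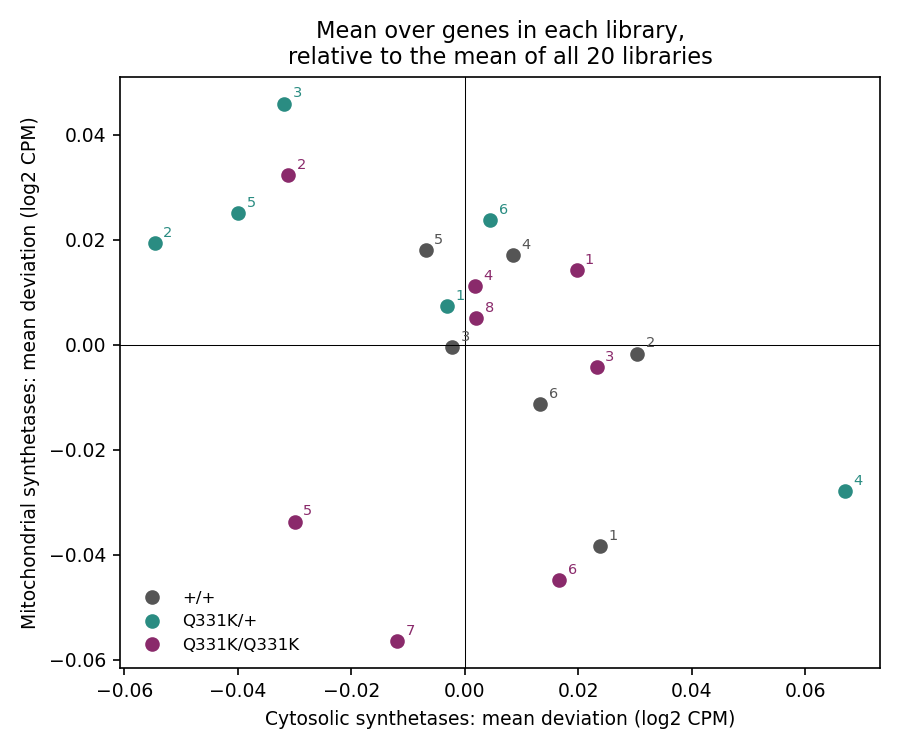
Mean deviation in log2 CPM of the 20 cytosolic genes (horizontal axis) and the 16 mitochondrial genes (vertical axis) in each library, relative to the mean of all 20 libraries; numbers are replicates. The genotypes overlap on both axes, and heterozygous replicates 2 (-0.055) and 4 (0.067) mark the ends of the cytosolic axis.

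Genes that serve the same step were examined by lists. Among 9 tested paralogs, trans-editing and other charging enzymes, 6 cytosolic elongation factors, 9 mitochondrial translation factors and 11 genes of tRNA maturation and export, 0 were called in each comparison by edgeR, DESeq2 or limma voom. Of all genes tested, edgeR called 1.56% in homozygotes against wild type, 0% in heterozygotes against wild type and 0.108% in homozygotes against heterozygotes. In the trend it called 1.83%. An unadjusted p under 0.05 in edgeR was found for 0 of the listed genes in heterozygotes against wild type, beside 3.19% of all genes. In homozygotes against heterozygotes it was found for 1 of the 9 charging enzymes and 2 of the 11 tRNA genes, beside 11%. In the trend it was found for 1 of those 9 and 1 of those 11, beside 16.8%. In homozygotes against wild type it was found for 1 of the 11 tRNA genes, beside 16.1%. That gene was Xpot, the exporter of tRNAs from the nucleus. It stood at 81.4 ± 2.23 CPM in wild type (SD, n = 6) and 85.7 ± 3.26 CPM over the 8 homozygous libraries (± SD). The log2 change was 0.07 (edgeR adjusted p = 0.197). Mtfmt, which formylates the mitochondrial initiator tRNA, stood at 11.8 ± 1.00 and 12.7 ± 0.55 CPM (log2 change 0.10, edgeR adjusted p = 0.321). All 6 elongation factor estimates were below 0 in homozygotes against wild type, from -0.053 (Eef2) to -0.0019 (Eef1a2), with a median of -0.022. Of all genes tested 49.4% were lower, with a median of 0.0013. The smallest p of the 6 was 0.0684 (edgeR, unadjusted), for Eef2.

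Of 24 genes of the amino acid response and ATF4 targets other than synthetases, 0 passed in homozygotes against wild type, heterozygotes against wild type and homozygotes against heterozygotes by edgeR. At an unadjusted p under 0.05 stood 7, 0 and 2 of them (29.2%, 0% and 8.33%), beside 16.1%, 3.19% and 11% of all genes tested. In the trend over alleles 8 of the 24 (33.3%) stood at an unadjusted p under 0.05, beside 16.8% of all genes tested. After adjustment 1 of the 24 passed there, in the downward direction, beside 1.83% of all genes tested (306 of 16690). It was Atf5, a transcription factor of the same stress responses, at 17.6 ± 0.99 CPM over the 6 wild-type libraries, 16.3 ± 1.14 over the 6 heterozygous and 14.96 ± 1.69 over the 8 homozygous (± SD). Its log2 change per allele was -0.12 (SE 0.031, edgeR adjusted p = 0.0417). In homozygotes against wild type the change was -0.24 (edgeR adjusted p = 0.0508), where DESeq2 and limma voom each called Atf5 and no other gene of the list. Over the whole table DESeq2 called 300 genes up and 334 down there, of 17361 tested. Limma voom called 115 up and 185 down, of 16690. The call in the trend was lost in 10 of 29 other settings, over which the change per allele ran from -0.17 to -0.10. Those were the replicate block (edgeR adjusted p = 0.0595), 3 surrogate variables (0.138), and the omission of wild-type replicate 1 (0.0757), 3 (0.0722), 5 (0.0769) or 6 (0.103) or of homozygous replicate 3 (0.0600), 5 (0.0881), 6 (0.0752) or 7 (0.0623).

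In homozygotes against wild type 19 of the 24 estimates were lower, with a median of -0.11 beside 0.0013 over all genes tested. Trib3, a pseudokinase induced by ATF4, stood at 0.542 ± 0.105 CPM in wild type and 0.358 ± 0.097 CPM in homozygotes (log2 change -0.60, edgeR adjusted p = 0.100). Atf4 itself stood at 153 ± 7.75 and 142 ± 6.32 CPM (log2 change -0.11, edgeR adjusted p = 0.110), and Nupr1, a stress-induced nuclear protein, at 10.8 ± 1.51 and 9.32 ± 0.68 CPM (-0.22, edgeR adjusted p = 0.128). The 5 cytosolic synthetase genes with the element printed above had estimates between -0.07 (Yars) and 0.0005 (Tars) in the same comparison, and none was called.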

How the data were processed

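Polyadenylated RNA was made into stranded libraries, per the labels' protocols; Trim Galore 0.4.3, HISAT2 2.0.5 and GRCm38 were used, per the submitters' processing notes. How reads were counted, with which annotation and with or without strand, is not given in the sources used here. Exon overlaps of some members are therefore named. The authors deposited raw counts per gene, not normalised; 56 of 25965 rows had no gene identifier but named a gene or feature and were kept. The test was that of edgeR 4.0.16 under R 4.3.3 (TMM, robust quasi-likelihood test, 20 libraries in 1 fit by genotype, filterByExpr leaving 16690 genes, all 36 members among them), with Benjamini-Hochberg adjustment over all of these. The analysis was repeated with DESeq2 1.42.0, with limma 3.58.1 voom, with other scaling and filters (none, or 1 CPM in 6 libraries), with a replicate block, 3 surrogate variables (sva 3.50.0) or marker scores as terms, on genotype pairs alone and with libraries left out. The fit was tested on simulated data, with changes planted in equal steps per allele in genes drawn from all those tested. At a log2 change of 0.2 from wild type to homozygotes, 36.6% were recovered in that comparison and 35.8% in the trend. In heterozygotes against wild type 0.746% were recovered, and in homozygotes against heterozygotes 2.24%. The 0 calls among members therefore do not show that changes of that size are absent. Lengths and overlaps came from GENCODE M21, promoters from RefSeq; 1 promoter stretch is not reported here. Correlations used log2 CPM (prior count 2) and 100000 permutations within genotypes. Marker scores are mean z scores. The members and lists were chosen with earlier results of these data known. Named were the 4 cytosolic and 4 mitochondrial members of smallest p in homozygotes against wild type, members called, and up to 4 genes of another list; Rars and Yars2 were added after their values were seen.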

Additional observations from a re-analysis of the deposited data

Results flagged for a closer look

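In 114 groups of 6 or 8 libraries, 7 held a library apart from the others by Dixon's test at 95%, which chance gives in about 1 of 20 groups. Lars2 was apart in 2 genotypes: wild-type replicate 5 stood at 50.8 CPM (the others at 28.2 to 34.7) and homozygous replicate 2 at 42.1 CPM (26.5 to 32.0). Heterozygous replicate 4 was high in Iars, at 82.3 CPM (72.2 to 75.1), and in Wars, at 99.8 CPM (87.4 to 91.1). Homozygous replicate 1 was high in Eprs, at 100.1 CPM (90.9 to 94.99), and homozygous replicate 8 in Vars2, at 27.1 CPM (23.8 to 25.3). Wild-type replicate 2 was low in Ears2, at 5.39 CPM (6.35 to 6.72).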

How the results depend on the processing

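In 30 other settings, 4284 tests of members gave 0 calls; the lowest adjusted p was 0.126, for Hars2 in the trend without homozygous replicate 4. In those settings 446 values were compared, for the named members of smallest p and for Atf5 in the trend. Of these, 436 kept their direction and their side of the threshold, and the 10 others were the lost calls of Atf5. Atf5 in homozygotes against wild type, where DESeq2 and limma voom called it, was not among them. Nor were the other genes named from the lists. The number of genes called over the whole table moved more. In homozygotes against wild type DESeq2 called 634 and the fit with 3 surrogate variables 117, and leaving out 1 library gave 115 to 314. In heterozygotes against wild type DESeq2 called 2, and leaving out any 1 library gave 0. In homozygotes against heterozygotes DESeq2 called 104, no filter 11 and 3 surrogate variables 1, with 5 to 31 on leaving out 1 library. In the trend DESeq2 called 692, 3 surrogate variables 116, the fit with ependymal, olfactory bulb and meningeal scores as covariates 197, and the fit without the 4 libraries of high ependymal score 193 (both chosen with the data known), with 159 to 436 on leaving out 1 library. With those scores as covariates the median log2 change in homozygotes against wild type was 0.0089 for cytosolic members, a turned sign, and -0.044 for mitochondrial members, and per allele 0.0037 and -0.021. Leaving out 1 library moved the cytosolic median between -0.036 and -0.013 in heterozygotes against wild type, and between -0.0031 and 0.031 in homozygotes against heterozygotes. The cause of these shifts was not tested. With the replicate number as a block, 387 genes were called in homozygotes against wild type and 0 in heterozygotes against wild type. In homozygotes against heterozygotes 16 were called and in the trend 383, with 0 members in each comparison. Same-numbered libraries correlated at -0.104 to 0.140. Without values for libraries of unlike number beside them, these cannot decide whether the numbers pair the libraries. Among members the counts were lowest for Ears2, at 386 to 712, while the standard error was largest for Lars2.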
